A study of Mus musculus with 2 samples.

Results

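The miRNAs described here are 9 genes known from blood: the erythroid genes Mir144, Mir451a and Mir486, and the immune cell genes Mir142, Mir223, Mir150, Mir155, Mir146 and Mir146b. They were read from 9 of 1973 miRNA gene rows, taken by gene symbol. Mir142 had no row of its own. It was read from the row of Mir142b, a gene on the other strand of the same locus, through that row's opposite-strand counts. The material was forebrain of mouse embryos at day 15.5, strain B6NCrl, healthy, with male and female embryos pooled, and no treatment or genetic change is named. Both libraries belonged to 1 group: replicate 1 pooled 78 embryos and replicate 2 pooled 62 embryos. RNA below 30 nt was sequenced. There was no comparison of conditions, and every test below sets library 2 against library 1. The labels call the libraries biological replicates 1 and 2, each with technical replicate number 1, so biological and technical spread cannot be separated. The p-values weigh the difference of these libraries against counting error only and do not measure spread between pools. By edgeR, the coefficient of variation between the libraries was 16%.

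A miRNA is cut from a hairpin precursor and loaded into an Argonaute protein, where bases 2 to 8 of its 5′ end, the seed, guide it to messenger RNAs. Red cell precursors make miR-144 and miR-451a from a shared transcript that the factor GATA1 switches on. miR-451a is unusual in skipping Dicer, its hairpin being cut by Argonaute 2 itself. Cells of the blood lineage in general carry miR-142, myeloid cells carry miR-223, mature lymphocytes carry miR-150, and activated immune cells raise miR-155 and miR-146a. In embryonic brain such cells are the circulating red cells, the blood leukocytes and the microglia, the resident macrophages of the brain.

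Of the 9 members, 8 had mature sequences in the RefSeq table used (build GRCm38.p6, the mm10 genome). Mir486 and miR-150-5p are not shown. The main arms of the other 7 genes are shown with the seed in capitals, because the seed sets which members could act on shared targets and the rest of the sequence sets whether their reads can be told apart.
miR-144-3p: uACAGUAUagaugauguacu
miR-451a: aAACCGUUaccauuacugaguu
miR-142a-5p: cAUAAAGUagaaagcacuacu
miR-142a-3p: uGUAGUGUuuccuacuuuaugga
miR-223-3p: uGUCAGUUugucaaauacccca
miR-155-5p: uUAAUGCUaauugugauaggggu
miR-146a-5p: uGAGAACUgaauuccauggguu
miR-146b-5p: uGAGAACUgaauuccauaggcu

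Only miR-146a-5p and miR-146b-5p, from Mir146 and Mir146b, shared a seed, GAGAACU. They differed outside it by G18A and U21C, with miR-146a-5p first and positions counted from 1 at the 5′ end. Each of the other printed miRNAs had a seed found in no other mature entry of the table, which held 1738 mature miRNAs. None of the printed miRNAs occurred without mismatch in the hairpin of another gene, over 1005 hairpins. The closest were the members of the miR-146 pair, with 2 mismatches. This compares full-length sequences only, and shorter reads can fit more loci.

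Mir451a, Mir486 and Mir142 each have a partner miRNA gene on the other strand. The hairpins of Mir451a, Mir142 and Mir142b are shown, with the mature miRNAs in capitals.
Mir451a: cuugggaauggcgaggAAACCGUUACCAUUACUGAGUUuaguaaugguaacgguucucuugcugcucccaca
Mir142: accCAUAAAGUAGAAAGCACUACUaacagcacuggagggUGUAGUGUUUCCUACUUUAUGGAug
Mir142b: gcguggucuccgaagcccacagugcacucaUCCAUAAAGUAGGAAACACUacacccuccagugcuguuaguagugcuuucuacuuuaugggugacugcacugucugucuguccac

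The capitals in the Mir451a hairpin run from base 17 to base 38 of 72, from the stem across the loop, which is the form that Argonaute 2 cuts. Its partner Mir451b occupies the same bases on the minus strand, and miR-451a placed on the hairpin of Mir451b had 4 mismatches at best. The row of Mir451a held 0 opposite-strand counts in replicate 1 and 0 in replicate 2. The Mir142 hairpin, 64 bases long, is contained whole in the reverse complement of the 115-base Mir142b hairpin. miR-142a-3p placed on the Mir142b hairpin had 4 mismatches at best and miR-142a-5p had 3, so full-length reads of the strands differ.

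**Figure D1:**
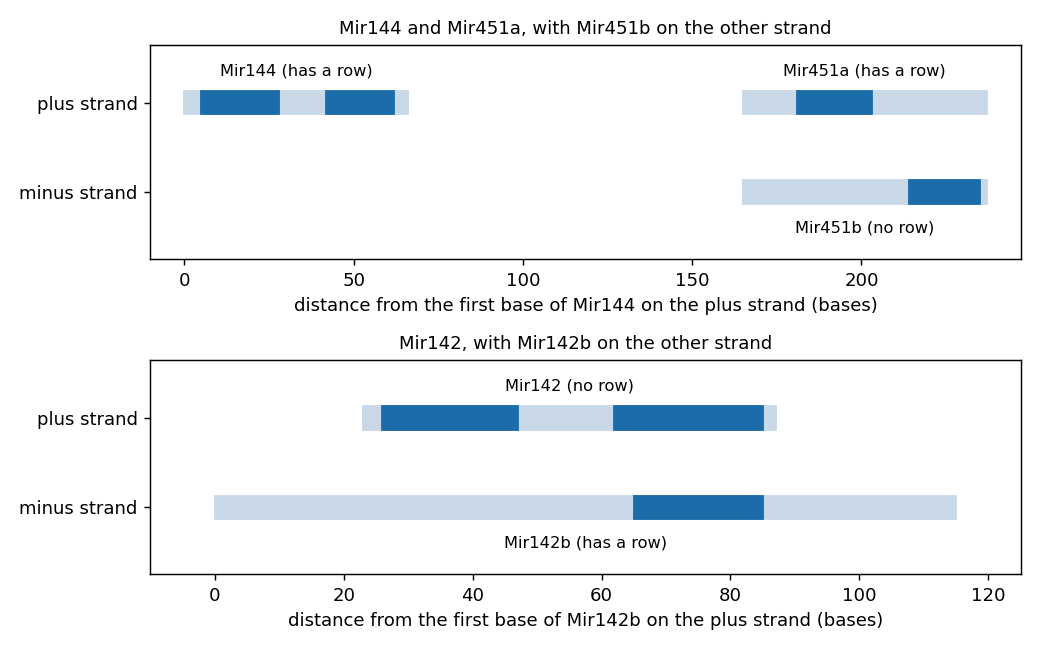
Maps of 2 loci with a miRNA gene on each strand: light boxes are hairpins and dark boxes are mature miRNAs. The x axes give distance in bases from the first base of Mir144 (top) and Mir142b (bottom), and "row" says whether the count tables hold the gene. The locus of Mir486, with Mir3107 on the other strand, is not drawn. Mir451b covers the same bases as Mir451a, and Mir142 lies inside the span of Mir142b.

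Levels are given as CPM, counts per 1000000 sense counts over miRNA gene rows, which were 4464927 in replicate 1 and 4753555 in replicate 2. No length scaling was applied, as a read can span a whole mature miRNA. Intervals in brackets are 95% Clopper-Pearson intervals. They cover counting error only, since reads without molecular tags are not independent molecules. Where a gene has no count, 3 counts set its upper limit: 0.672 CPM for replicate 1 and 0.631 CPM for replicate 2. In both libraries reads placed at several loci (44.6% and 42.4% of all reads) stayed outside the gene rows. In whole tissue, fewer cells of a type and less RNA per cell cannot be told apart. Of the forebrain and neuron genes, Mir137 stood at 9092 CPM, Mir128-1 at 2002 CPM, Mir128-2 at 1152 CPM and Mir9-3 at 733 CPM. Mir9-2 stood at 3.26 CPM, and the neuronal genes Mir124a-1, Mir124a-2 and Mir124a-3, which share sequence, at 2.80, 2.25 and 1.05 CPM. Whether these levels are particular to forebrain was not tested. Skeletal muscle Mir1a-1, Mir133a-1 and Mir133a-2 were listed at 0 in both libraries, a value that leaves out reads placed at several loci. Mir206, also of skeletal muscle, was detected, at 20.6 CPM in replicate 1 and 4.84 CPM in replicate 2.

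All members together made up 0.0582% of the counts, summing to 563.5 CPM in replicate 1 and to 599.6 CPM in the other library. The erythroid genes held 152 CPM of this on average and the immune cell genes 429 CPM. Detection required no fewer than 10 counts per library, which 8 of the 9 members met, as did 371 of all gene rows. The detected members ranked from 158 to 285 by mean level. The median detected gene stood at 114 CPM, and only Mir142 was above it. Mir99a, the gene row of highest mean level in these counts, which leave out reads placed at several loci, was 1576 times as high as Mir142.

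**Figure D2:**
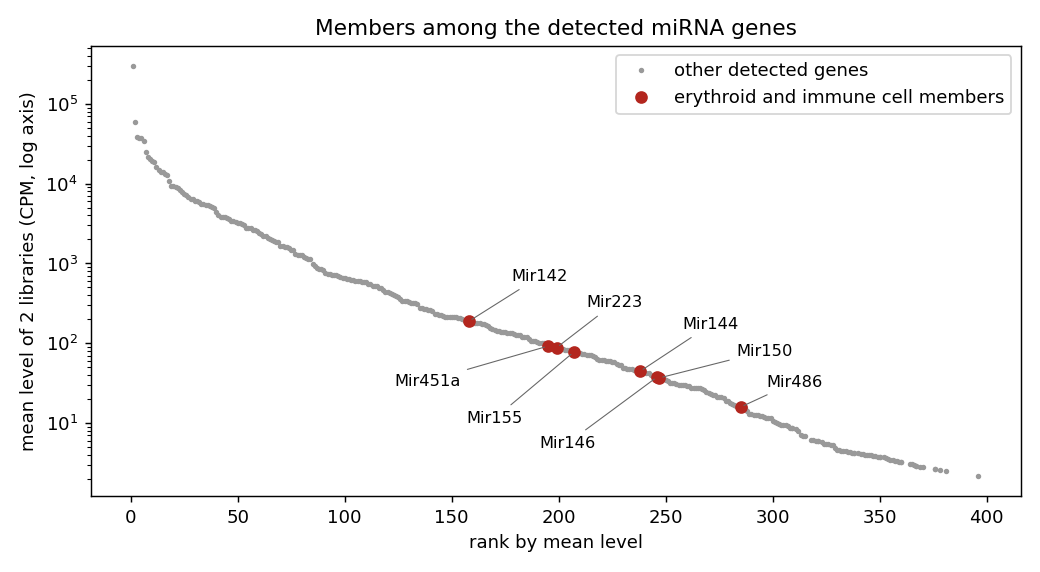
Mean level of the detected miRNA genes in CPM (log axis) against their rank, with the 8 detected members in red and the other detected genes in grey. The members sit between rank 158 (Mir142) and rank 285 (Mir486), in the middle and lower part of the profile.

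Among the erythroid genes, Mir451a was the highest. It lies on chromosome 11 (78073170 to 78073241, plus strand) and had 379 counts in replicate 1, or 84.9 CPM (76.6 to 93.9), and 471 counts in replicate 2, or 99.1 CPM (90.3 to 108). Mir144 lies 99 bases upstream (78073005 to 78073070, plus strand), and miR-144 acts in red cell precursors on messenger RNAs of the oxidative stress response. It had 174 counts in replicate 1, or 39.0 CPM (33.4 to 45.2), and 237 in replicate 2, or 49.9 CPM (43.7 to 56.6). Both genes were thus above their replicate 1 level in replicate 2, and the ranges of the 2 genes did not overlap.

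Mir451a exceeded its cluster neighbour Mir144 by 2.18-fold in replicate 1 (1.82 to 2.62) and by 1.99-fold in replicate 2 (1.70 to 2.33). The proportion of Mir144 to Mir451a is free of any library scaling, and its odds ratio of replicate 2 over replicate 1 was 1.10 (0.858 to 1.40, two-sided Fisher's exact test, p = 0.468). No change in the proportion was detectable at this depth, and the interval allows a shift of up to 1.40-fold.

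Mir486 is annotated in an intron of Ank1, the gene of the red cell membrane protein ankyrin 1 (chromosome 8, 23142555 to 23142682, plus strand). miR-486 is known from red cell precursors and also from skeletal and heart muscle. It had 70 counts in replicate 1, or 15.7 CPM (12.2 to 19.8), and 76 in replicate 2, or 16.0 CPM (12.6 to 20.01), so the libraries overlapped almost wholly. Mir3107 (23142573 to 23142662, minus strand) lies inside the same bases and is known to give a mature miRNA of the same 5p sequence. Mir3107 had no row. How many reads fit both strands was not tested, so the level of Mir486 is uncertain.

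Of the immune cell genes, Mir142 was the highest and also the highest of all members. Mir142 (chromosome 11, 87756864 to 87756927, plus strand) lies in an intron of the noncoding gene Mir142hg. The row of Mir142b (87756841 to 87756955, minus strand) held 0 sense counts in both libraries, and 842 opposite-strand counts in replicate 1 and 894 in replicate 2. These opposite-strand counts came to 189 CPM (176 to 202) in replicate 1 and 188 CPM (176 to 201) in replicate 2. The libraries thus gave nearly the same level, and all 100% of the reads in this row lay on the strand of Mir142 (at least 99.6% by the lower interval bound in either library). Over all gene rows only 1.59% and 1.49% of counted reads were on the opposite strand, and the Mir142b row stood 9th by opposite-strand counts in each library. By its sense column alone, the row with the highest level of the set would be listed at 0. The counts cover the whole span of Mir142b and do not separate the arms of Mir142.

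Mir223 (chromosome X, 96242817 to 96242926, plus strand), in an exon of the noncoding gene F630028O10Rik, is known from granulocytes and monocytes. It had 345 counts in replicate 1, or 77.3 CPM (69.3 to 85.9), and 469 in replicate 2, or 98.7 CPM (89.9 to 108). Replicate 2 was the higher library, with intervals that did not overlap. Mir150 (chromosome 7, 45121757 to 45121821, plus strand), overlapping no other annotated gene, marks mature B and T cells, where it holds down the factor MYB. It had 148 counts in replicate 1, or 33.1 CPM (28.0 to 38.9), and 191 in replicate 2, or 40.2 CPM (34.7 to 46.3). For Mir150 the intervals of the libraries overlapped.

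Mir155 (chromosome 16, 84714140 to 84714204, plus strand), in an exon of the noncoding host gene Mir155hg, is induced in activated macrophages and lymphocytes. It had 386 counts in replicate 1, or 86.5 CPM (78.0 to 95.5), and 324 in replicate 2, or 68.2 CPM (60.9 to 76.0). Here replicate 1 was the higher library, the opposite of Mir223, and the intervals did not overlap. In replicate 1 Mir155 stood above Mir223 (ratio of counts 1.12) and in replicate 2 below it (0.691).

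Mir146 (chromosome 11, 43374397 to 43374461, minus strand), overlapping no other annotated gene, encodes miR-146a, which NF-κB induces and which dampens signalling through TRAF6 and IRAK1. It had 163 counts in replicate 1, or 36.5 CPM (31.1 to 42.6), and 185 in replicate 2, or 38.9 CPM (33.5 to 45.0), with overlapping intervals. Its seed partner Mir146b (chromosome 19, 46342762 to 46342870, plus strand), in an intron of Mfsd13a, had 9 counts in replicate 1, or 2.02 CPM (0.922 to 3.83), and 3 in replicate 2, or 0.631 CPM (0.130 to 1.84). Mir146b was the only member below the detection minimum, and its level in replicate 2 was at the level of the floor.

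Nearly all reads with the GAGAACU seed among these members thus came from Mir146, if the 5p arm made up the reads of both, which counts per gene do not show. The count of Mir146 was 18.1 times that of Mir146b in replicate 1 (9.31 to 40.3) and 61.7 times in replicate 2 (20.8 to 302). These intervals overlap. As the 2 mature sequences differ by G18A and U21C near the 3′ end, reads that end short of those bases could fit both loci.

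**Figure D3:**
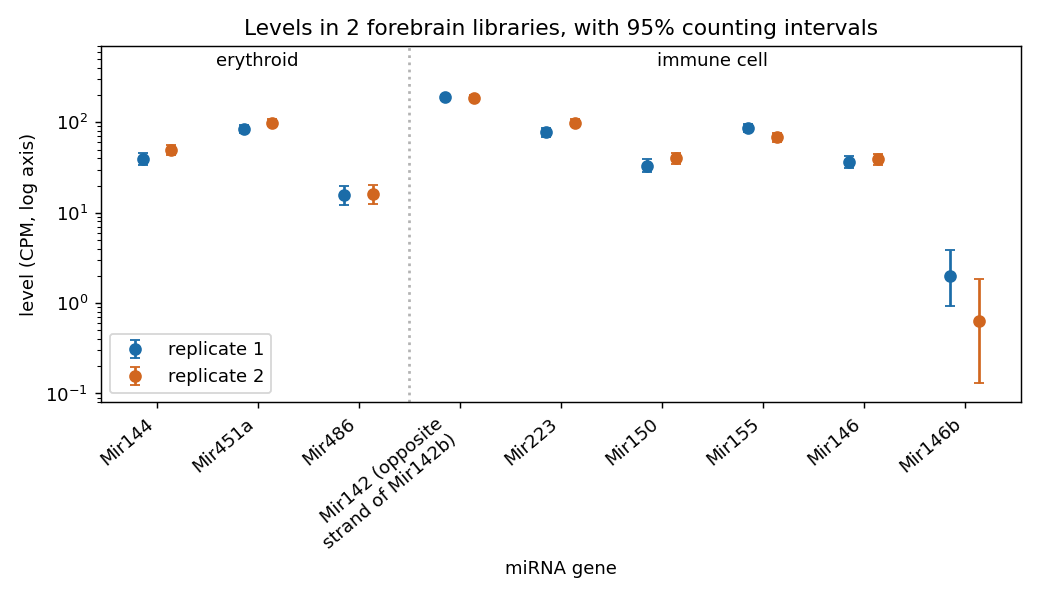
Level of each member in CPM (log axis) in replicate 1 (blue) and replicate 2 (orange), with bars for 95% Clopper-Pearson intervals; erythroid genes are left and immune cell genes right of the dotted line. Mir142 lies highest at 189 and 188 CPM and Mir146b lowest at 2.02 and 0.631 CPM.

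By mean ± SD over n = 2 libraries, the order ran from Mir142 (188 ± 0.361 CPM) through Mir451a (92.0 ± 10.04), Mir223 (88.0 ± 15.1) and Mir155 (77.3 ± 12.9) to Mir144 (44.4 ± 7.70), Mir146 (37.7 ± 1.71), Mir150 (36.7 ± 4.97), Mir486 (15.8 ± 0.219) and Mir146b (1.32 ± 0.979). Neighbours were called separate where their values did not overlap and their means differed by more than the larger SD. Mir142 was separate from Mir451a, at 2.05 times its mean. Mir451a, Mir223 and Mir155 were not separated from one another in turn, and neither were Mir144, Mir146 and Mir150. Mir155 was separate from Mir144 (1.74-fold), Mir150 from Mir486 (2.32-fold) and Mir486 from Mir146b. The members thus fell into steps: Mir142, then 1 erythroid and 2 immune genes near each other, then 1 erythroid and 2 immune genes below them. Mir486 and, below it, Mir146b each formed a further step.

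Each library was then set against the other, gene by gene, by two-sided exact binomial tests on its counts, and p was adjusted by the Benjamini-Hochberg method over all 458 genes with at least 10 counts in total. Of the 9 members 3 differed at an adjusted p below 0.05, against 36.2% of all genes tested. Of these 3 members, 2 were higher in replicate 2, against 19.2% of all genes, and 1 was lower, against 17.0%. The member counts lay close to the background shares and are no result about blood cell miRNAs as a set. The median log2 ratio of replicate 2 over replicate 1 was 0.092 over the 9 members and 0.047 over all genes tested. Of all called genes, 53.0% were higher in replicate 2, against 69.1% with Mir99a left out of the library total, 43.4% with TMM scaling and 47.9% with DESeq2 size factors, so the majority direction depended on the scaling.

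For Mir223 the level in replicate 2 was above that in replicate 1 by a log2 ratio of 0.35 (95% interval 0.15 to 0.56, exact binomial test, adjusted p = 0.00213). Mir144 was higher by 0.35 (0.067 to 0.65, exact binomial test, adjusted p = 0.0384). That call was lost with TMM scaling (adjusted p = 0.076), with DESeq2 size factors (0.0619) and with genes of 1 count or more tested (0.0608). Mir155 moved the other way, its log2 ratio being -0.34 (-0.56 to -0.13, exact binomial test, adjusted p = 0.0056). The calls of Mir223 and Mir155 held under each scaling and count minimum tried. Among detected genes, 72.8% had a smaller absolute log2 ratio than Mir223, 73.6% a smaller one than Mir144 and 71.7% a smaller one than Mir155, so many genes of these libraries differed by more.

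The other 6 members did not pass the test. For Mir451a the log2 ratio was 0.22 (0.025 to 0.42, exact binomial test, adjusted p = 0.0684), and it passed with Mir99a left out of the total (adjusted p = 0.0142) and with a minimum of 100 counts (0.0486). For Mir150 the log2 ratio was 0.28 (-0.040 to 0.60, adjusted p = 0.183 by the exact binomial test), and for Mir146 0.092 (-0.22 to 0.41, adjusted p = 0.723). Mir142 was the closest to equal, at -0.0040 (-0.14 to 0.13), an interval that bounds any difference at 0.14 on the log2 scale by counting error. Mir486 stood at 0.027 (-0.46 to 0.52), where differences of the size seen for Mir223 could not have been told from none. Mir146b stood at -1.53 (-4.20 to 0.33, adjusted p = 0.183 by the exact binomial test), the widest interval of the set.

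**Figure D4:**
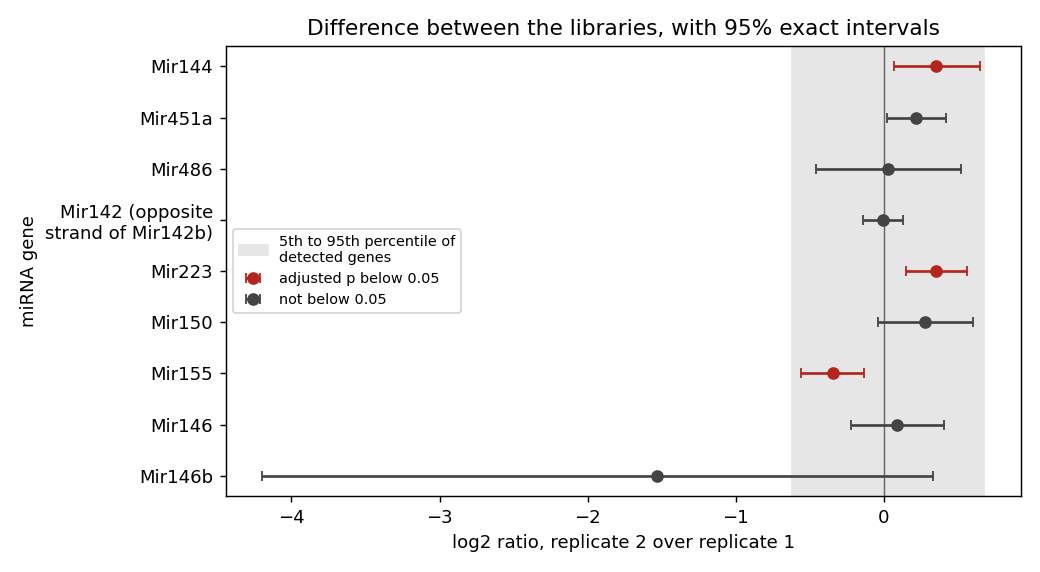
Log2 ratio of replicate 2 over replicate 1 for each member, with 95% exact intervals; red marks an adjusted p below 0.05, and the grey band spans the 5th to 95th percentile of the detected genes (-0.62 to 0.68). Mir144 and Mir223 lie above 0 and Mir155 below, all 3 inside the grey band.

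Markers of other cells also differed between the pools, as did 36.2% of all genes tested. Mir126a, known from endothelial cells, stood at 15856 CPM in replicate 1 and 16377 CPM in replicate 2, a difference of 0.047 in log2 (adjusted p = 2.72e-09, exact binomial test) whose call was lost with TMM scaling. Liver Mir122 was higher in replicate 2, at 65.6 and 88.6 CPM (log2 ratio 0.43, exact binomial test, adjusted p = 0.000333), and skeletal muscle Mir206 was lower, at 20.6 and 4.84 CPM. Of the 8 forebrain and neuron genes tested, 1 was higher in replicate 2 (Mir124a-3, with 0 and 10 counts), 2 were lower and 5 did not pass. The lower ones were Mir137, at 9747 and 8437 CPM, and Mir128-1, at 2056 and 1948 CPM. Over all genes tested 19.2% were higher and 17.0% lower, so these calls are no result about the marker genes as a set. With TMM scaling 4 of the forebrain and neuron genes were lower, and Mir137 alone was lower once Mir99a was taken out of the total. The call of Mir124a-3 was lost with counts on either strand. Their part in the member differences was not tested. Against Mir126a, Mir451a was 187 times lower in count in replicate 1 and 165 times lower in replicate 2, and Mir142 was 84.1 and 87.1 times lower.

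A further list held 13 miRNAs described in blood cells but made in other tissues too, such as Mir21a, Mir22 and Mir342. Of these, 10 had a row and 9 were detected, and their summed level of 14991 CPM was far above that of the members. Mir342, in lymphocytes and many other tissues, was the highest at 7916 ± 272 CPM. Mir21a, raised by many kinds of stimulus, stood at 3833 ± 463 CPM, and Mir22, which rises in red cell maturation, at 2383 ± 378 CPM (SD, n = 2). Of the 10 genes tested, 4 were higher in replicate 2 (Mir342, Mir21a, Mir22 and Mir363), 1 was lower (Mir221) and 5 did not pass, beside 19.2% higher and 17.0% lower over all genes tested. With Mir99a left out of the total 5 were higher, Mir210 being added, and none lower. The same 4 higher genes and Mir221 were called with TMM and with DESeq2 scaling.

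For each member, the nearest other detected gene in level over both libraries was taken. For Mir142 this was Mir700 (190 CPM on average), and for both Mir451a and Mir223 it was Mir214 (92.9 CPM), known from mesenchyme. For Mir144 it was Mir666 (43.8 CPM), for Mir155 Mir412 (81.6 CPM), for Mir150 Mir208b (37.97 CPM), for Mir146 Mir1198 (36.2 CPM), for Mir486 Mir490 (15.4 CPM) and for Mir146b Mir378c (2.17 CPM). Likeness was the distance of log2(CPM + 1) over 2 libraries of 1 group, so it describes a shared level and no shared pattern across conditions. The distance was 0.93 for Mir146b and at most 0.17 for the other members. Only detected genes could be taken and Mir146b was not detected, so its pairing with Mir378c shows no shared level.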

How the data were processed

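Each deposited table gave raw counts for miRNA genes, whole numbers that the authors had not normalized, in columns for either strand, the sense strand and the opposite strand. Per the deposited README text the authors aligned reads to mm10 and used GENCODE M4. The aligner, counting tool and strand setting were not given in the sources used here. In each gene row, counts on the sense and opposite strand added up to the either-strand column. The 4 rows naming no gene were left out of totals and tests. Symbols and coordinates (mm10, counted from 1) came from GENCODE M21, by identifier: 1894 of 1973 rows matched. CPM was the sense count over the sum of sense counts, and Mir142 used the opposite-strand counts of the Mir142b row. Sequences were RefSeq's (GRCm38.p6), compared without gaps. The column holding nearly all counts was taken as the sense strand.

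The members and lists were chosen with earlier results of these data known. All members were named, with the nearest detected gene in level to each and up to 3 genes of highest level per marker list; other genes named were those called in the list or standing as reference.

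Counts were compared by exact binomial tests (SciPy 1.17.1, threshold 0.05, 0.5 counts added for ratios). Alternatives were TMM (edgeR 4.0.16) and DESeq2 1.42.0 size factors, a total without Mir99a, either-strand counts, minimums of 1 and 100 counts, 5 counts added, a denominator of all reads and single libraries. The test was tried on simulated data with 200 changed genes. The simulated counts held counting error only, so this trial does not show how the test behaves with spread between libraries. No quasi-likelihood test was run, as 1 group gives no contrast. Depth was 11743597 and 13074292 reads, of which 38.0% and 36.4% were sense counts.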

Additional observations from a re-analysis of the deposited data

Results flagged for a closer look

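Outside the counts used for Mir486, its row held 4 opposite-strand counts in replicate 2 (5.00% of 80 counts on either strand, Clopper-Pearson 95% interval 1.38 to 12.3) and 0 in replicate 1. The 4 counts lay on the strand of Mir3107 and were flagged as 1 count above the level of 3 that a count of 0 allows. That is no test of replicate 2 against replicate 1, and their difference in opposite-strand counts was not tested.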

How the results depend on the processing

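The number of members that differed between the libraries was 3, and it ran from 2 to 4 over the scalings and count minimums tried. Over all genes it ran from 156 to 181, against 166. The near-zero ratios of 2 members changed sign: Mir486 became -0.0096 with TMM scaling, and Mir142 became 0.056 with Mir99a left out of the total. Levels depend on the denominator by construction. With Mir99a left out, Mir142 stood at 268 CPM, Mir451a at 131, Mir223 at 125, Mir155 at 110, Mir144 at 63.3, Mir146 at 53.7, Mir150 at 52.3 and Mir486 at 22.5 CPM. Per 1000000 reads of any kind they stood at 70.0, 34.1, 32.6, 28.8, 16.5, 14, 13.6 and 5.89 in the same order. With counts on either strand Mir142 stood at 185 CPM. Besides Mir142b, 2 members (Mir486 and Mir150) had opposite-strand counts, and over single libraries this number ran from 0 to 2, a check added after the data were seen. Each member's level in a single library lay within 1 SD of its mean, which n = 2 fixes. Differences between the libraries have no value with a library left out. Depth limits Mir146b most, with 9 and 3 counts.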
